A study of Arabidopsis thaliana with 6 samples.

Results

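The genes described here are 6 nuclear photosynthesis genes of Arabidopsis thaliana, followed in unopened flower buds over 3 days of soil drought. They are LHCB4.1 (AT5G01530), PSBW (AT2G30570), PSAE-1 (AT4G28750), PSAN (AT5G64040), RCA (AT2G39730) and PRK (AT1G32060). Each was taken by name, where a probe set of the array was named with that gene alone. This gave 1 probe set for each of the 6, out of 13356 genes with a probe set of their own name and 22746 probe sets tested. No filter on low values was applied, so all 6 entered every test.

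The plants were dreb1a mutants (stock CS872453) in the Col-0 background, with a changed gene for a transcription factor of the drought and cold response. They grew well watered for 24 days, until the main stem was about 1 cm high, and then received no water. Some 80 hours later the soil held near 35% of the water it could hold, which the labels call day 3, and daily watering kept it there. Buds were taken on days 3, 4 and 5 of drought, from plants 28, 29 and 30 days old, with 2 samples a day and 1 ATH1 array a sample. All 3 groups carry the same mutation and the same drought treatment. Buds of the wild type or of watered plants were not analysed here, so a change is a change between days within droughted mutants. Days of drought cannot be told apart from plant age. The labels do not say that the 2 samples of a day came from separate plants, so the p-values reflect only how far these samples spread, and that spread may be technical.

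Photosynthesis in green tissue runs in the thylakoid membranes and the stroma of the chloroplast. Light-harvesting proteins pass energy to photosystem II and photosystem I, which drive electrons along the membrane, and the Calvin-Benson cycle in the stroma uses the ATP and NADPH so made to fix carbon dioxide. The core proteins of the photosystems are encoded in the plastid, while the antenna proteins, many small subunits and most enzymes of the cycle come from nuclear genes. In flower buds the green sepals, the young anther wall and the carpel wall hold chloroplasts.

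The 6 genes gave high values throughout, from 11.24 to 13.07 on the log2 scale, on arrays whose upper quartiles lay between 8.86 and 8.89. These values were computed by RMA, which brings all arrays to nearly the same distribution, so each change below is relative to the array as a whole. Levels of different probe sets are not compared, because probes differ in how strongly they bind. The SD between the 2 arrays of a day ran from 0.00052 to 0.15 over the 6 genes.

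Over the 3 days the genes took different courses. PSAN and PSAE-1, both of photosystem I, were lower on day 5 than on day 3, by 27.4% and 22.5%. PRK was 21.2% lower on day 4 than the mean of days 3 and 5, but day 4 against day 3 did not pass (limma adjusted p = 0.0890). The PRK call against that mean did not hold with arrays centred on their median. RCA, PSBW and LHCB4.1 did not pass the test over the 3 days. In that moderated F test of limma, which asks whether a gene differs among the days in any way, 3 of the 6 genes passed an adjusted p of 0.05, against 31% of all 22746 probe sets. The adjusted p was 0.00908 for PSAN, 0.0289 for PSAE-1 and 0.0389 for PRK, and 0.183 to 0.399 for the other 3 genes. With either day 3 array left out, 0 of the 6 passed this F test.

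**Figure D1:**
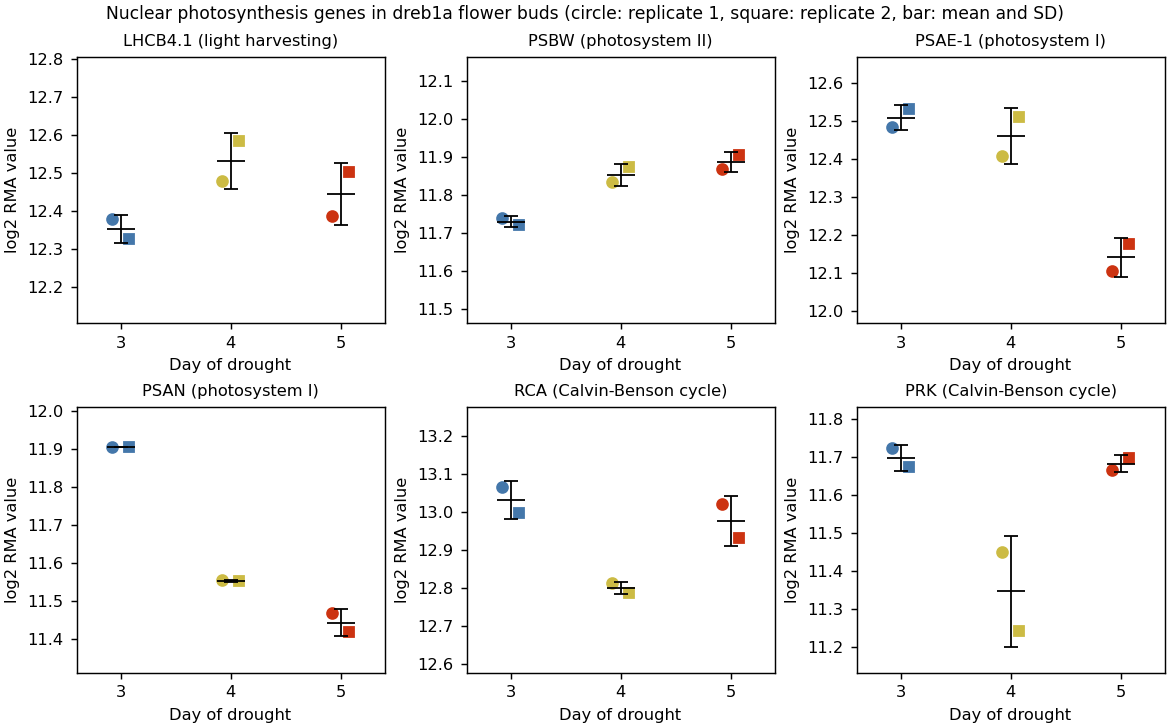
The log2 value of each of the 6 genes (y axis, the same span in each panel) on days 3, 4 and 5 of drought (x axis), with a point for each array and a bar for the mean and SD of the 2 arrays of a day. PSAN and PSAE-1 lie lowest on day 5, PRK and RCA on day 4, and LHCB4.1 and PSBW on day 3.

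LHCB4.1 encodes a minor antenna protein that links the main light-harvesting complex to photosystem II. Its values were 12.38 and 12.33 on day 3, 12.48 and 12.58 on day 4, and 12.39 and 12.50 on day 5. The day 4 and day 5 arrays all lay above both day 3 arrays, and those of days 4 and 5 overlapped. The order of the means was day 3, day 5 and day 4, from low to high, and no neighbours in it passed the test. The log2 change was 0.09 (SE 0.10) for day 5 against day 3, with a 95% interval from -0.13 to 0.32 (limma, adjusted p = 0.560). That interval covers changes of either sign and leaves out a fall as large as that of PSAN.

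PSBW encodes a small membrane subunit of photosystem II, found where the photosystem meets its antenna. Its values were 11.74 and 11.72 on day 3, 11.83 and 11.87 on day 4, and 11.87 and 11.90 on day 5. Both later days lay above day 3 without overlap, by log2 values of 0.12 and 0.16 (SE 0.10 each), while days 4 and 5 overlapped. None of these differences passed (limma adjusted p = 0.515 between days 4 and 3, 0.841 between days 5 and 4 and 0.264 between days 5 and 3).

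PSAE-1 encodes a subunit on the stromal side of photosystem I, near the place where ferredoxin takes up electrons. Its values were 12.49 and 12.53 on day 3, 12.41 and 12.51 on day 4, and 12.11 and 12.18 on day 5. Days 3 and 4 overlapped and both day 5 arrays lay below all others. Its mean was 12.14 ± 0.05 on day 5, against 12.46 ± 0.07 on day 4 and 12.51 ± 0.03 on day 3 (SD, n = 2 each). PSAE-1 fell by 0.32 between days 4 and 5 (SE 0.10, limma adjusted p = 0.0400) and by 0.37 between days 3 and 5 (SE 0.10, adjusted p = 0.0177). The change of day 4 against day 3 was -0.05 (SE 0.10, adjusted p = 0.834). Neither call held on leaving out any single array of the pair of days (with adjusted p from 0.0543 to 0.185 for day 5 against day 4, and from 0.0621 to 0.108 for day 5 against day 3). The call for day 5 against day 4 was also lost in a fit of the 2 days alone (adjusted p = 0.0589) and after repeated quantile normalization. Without either array of day 3 it was lost too. Both calls were lost after cyclic loess (adjusted p = 0.196 and 0.0629).

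PSAN encodes a subunit on the lumen side of photosystem I, known for its part in the docking of plastocyanin, the protein that brings electrons to the photosystem. Its values were 11.90 and 11.90 on day 3, 11.55 and 11.55 on day 4, and 11.47 and 11.42 on day 5. The 3 days did not overlap, and each lay below the one before it. PSAN fell by 0.46 between days 3 and 5 (SE 0.10, 95% interval -0.67 to -0.25, limma adjusted p = 0.00435), and this call held under all 16 alternative settings, where the change ran from -0.95 to -0.38. Most of the difference lay between days 3 and 4, at -0.35 (SE 0.10, adjusted p = 0.0647), with -0.11 (SE 0.10, adjusted p = 0.451) for day 5 against day 4. The day 4 value did not pass as fitted and passed in 4 alternatives. These were letting the prior variance depend on signal level (adjusted p = 0.00869), repeated quantile normalization (0.0486), cyclic loess (0.0483) and leaving out the dimmest 30% of probe sets (0.0420).

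RCA encodes Rubisco activase, which frees the carbon-fixing enzyme Rubisco from inhibitory sugar phosphates. Its values were 13.07 and 12.996 on day 3, 12.81 and 12.79 on day 4, and 13.02 and 12.93 on day 5. The day 4 arrays lay below the arrays of both other days, which overlapped. Its change was -0.23 for day 4 against day 3 (SE 0.10, limma adjusted p = 0.218) and 0.18 for day 5 against day 4 (SE 0.10, adjusted p = 0.228), and neither passed as fitted. After cyclic loess the rise between days 4 and 5 passed, and scaled to the poly-A controls that change turned to -0.37. The 95% interval of the change of day 4 against the mean of days 3 and 5 ran from -0.39 to -0.01, with an adjusted p of 0.169.

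PRK encodes phosphoribulokinase, which makes the sugar that Rubisco joins to carbon dioxide. Its values were 11.72 and 11.67 on day 3, 11.45 and 11.24 on day 4, and 11.67 and 11.70 on day 5. As for RCA, the day 4 arrays lay below all others, and the arrays of days 3 and 5 overlapped. PRK had the widest spread within a day, with an SD of 0.15 on day 4. It rose by 0.34 between days 4 and 5 (SE 0.11, limma adjusted p = 0.0414) and was 0.34 lower on day 4 than the mean of days 3 and 5 (log2 change -0.34, SE 0.09, adjusted p = 0.0492). Day 4 against day 3 gave -0.35 (SE 0.11, adjusted p = 0.0890), and day 5 against day 3 gave -0.02 (SE 0.11, adjusted p = 0.934). When day 4 replicate 2 was left out, the lower of the day 4 arrays, the changes were 0.23 for day 5 against day 4 (adjusted p = 0.193) and -0.24 for day 4 against the other days (adjusted p = 0.238). The first call was also lost without either array of day 3 or of day 5 (adjusted p from 0.0615 to 0.178), and the second without any 1 of the 6 arrays (adjusted p from 0.0506 to 0.238).

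Counted together, 0 of the 6 genes passed for day 4 against day 3, where 4.95% of all probe sets did, 2.48% higher and 2.47% lower (limma). At an unadjusted p under 0.05 the count was 3, made up of PSAN, PRK and RCA, each lower on day 4, where 20.4% of all probe sets passed, 9.19% lower. For day 5 against day 4, PRK rose and PSAE-1 fell, against 10.5% of all probe sets called higher and 13.4% called lower. In day 5 against day 3, PSAN and PSAE-1 fell and none rose, against 15.7% called lower and 13.2% called higher. Between day 4 and the mean of days 3 and 5, PRK alone passed, as lower, where 6.88% of all probe sets were called, 3.39% higher and 3.49% lower. The 3 comparisons of 2 days share arrays, so their counts are not independent. Arrays of the days compared did not overlap for 5 of the 6 genes between days 4 and 3, 4 between days 5 and 4, and 4 between days 5 and 3. The same held for 50%, 62.2% and 65.9% of all probe sets. Day 4 lay outside the arrays of both other days for 2 of the 6 genes, RCA and PRK, and for 20.6% of all probe sets.

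The sizes were modest. The median log2 change of the 6 genes was -0.14 between days 4 and 3, -0.03 between days 5 and 4 and -0.04 between days 5 and 3, beside medians of 0.02, -0.05 and -0.01 over all probe sets. Between days 5 and 3, the change without its sign had a median of 0.19 and an upper quartile of 0.37 over all probe sets, and 5% exceeded 0.86. The changes of PSAN and PSAE-1, at 0.46 and 0.37, lay near that upper quartile, and the other 4 genes lay below the median.

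**Figure D2:**
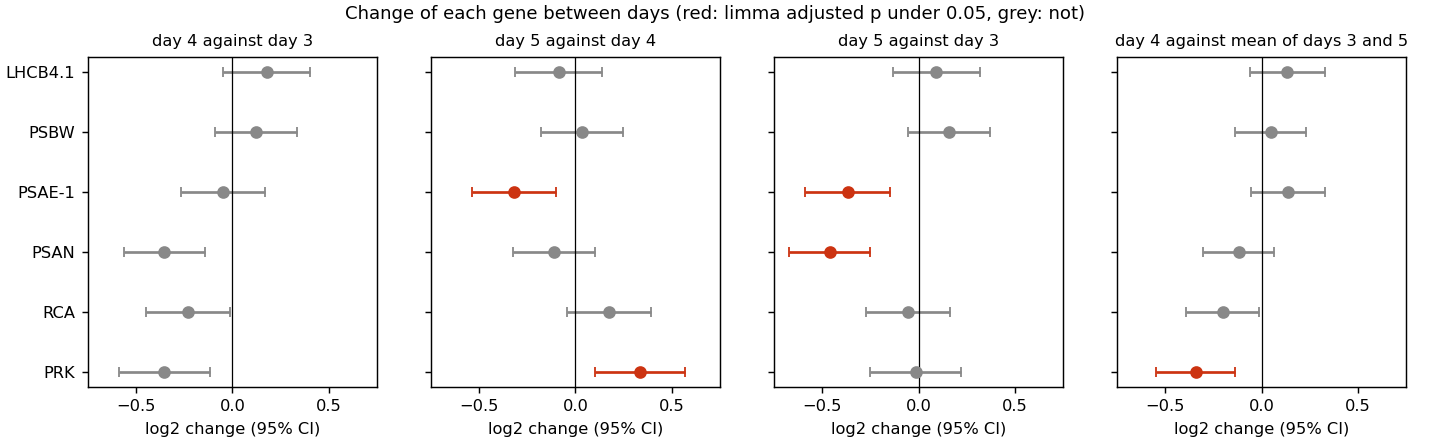
The log2 change of each gene (x axis, with its 95% interval) in the 4 comparisons, 1 panel each; red marks an adjusted p under 0.05 in limma. Red marks PSAE-1 (-0.32) and PRK (0.34) for day 5 against day 4, PSAN (-0.46) and PSAE-1 (-0.37) for day 5 against day 3, and PRK (-0.34) for day 4 against the other days.

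Within each array, the genes were also set beside each other, as the change of a gene from its own day 3 mean minus the mean change of the other 5. PSAN stood at -0.38 and -0.47 on the day 5 arrays and at -0.28 and -0.29 on the day 4 arrays. PSAE-1 stood at -0.34 and -0.28 on the day 5 arrays but at 0.02 and 0.14 on the day 4 arrays. PSBW stood at 0.31 and 0.33 on day 5 and at 0.26 and 0.31 on day 4. LHCB4.1 stood at 0.18 and 0.30 on day 5 and at 0.29 and 0.41 on day 4. RCA stood at 0.13 and -0.0023 on day 5 and at -0.13 and -0.16 on day 4, and PRK at 0.10 and 0.12 on day 5 and at -0.16 and -0.41 on day 4. On day 5 the lowest values were those of PSAN and PSAE-1, and on day 4 those of PSAN and PRK. The log2 ratio of PSAN to PSBW was 0.62 lower on day 5 than on day 3, with no overlap of arrays. An exact permutation test of 2 arrays against 2 gives a two-sided p of 0.333 for such a ratio, the smallest it can give.

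The other genes of the pathway came from lists of 89 nuclear genes for light harvesting, the photosystems, electron transport, the plastid ATP synthase and the Calvin-Benson cycle. Of these, 13 had a probe set named with the gene alone, the 6 genes above included. Between days 5 and 3, 2 of the 13 rose, 5 fell and 6 did not pass, against 13.2% of all probe sets called higher and 15.7% called lower. The median log2 change of the 13 was -0.06. Leaving out any single array of day 3 or day 5 left 1 higher and 1 lower. After cyclic loess 2 were higher and 1 was lower, and scaled to the poly-A controls 0 were higher and 11 lower. Under the poly-A scaling 76.8% of all probe sets were called lower. None of the 13 passed for day 4 against day 3 in limma, where 4.95% of all probe sets did.

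LHCB4.2 (AT3G08940), a close relative of LHCB4.1 with the same place in the antenna, rose by 0.64 between days 3 and 5 (SE 0.12, adjusted p = 0.00199). Its values were 10.62 and 10.79 on day 3, 10.97 and 11.16 on day 4, and 11.25 and 11.44 on day 5, so that no days overlapped. Scaled to the poly-A controls, its change was 0.16 (adjusted p = 0.306). The third gene of the family, LHCB4.3 (AT2G40100), stood at -0.06 (adjusted p = 0.725). The log2 ratio of LHCB4.2 to LHCB4.1 was higher by 0.52 and 0.59 on the day 5 arrays than the day 3 mean, and the day 3 arrays lay 0.11 to either side of that mean (exact permutation p = 0.333, the smallest possible). The probe sets of all 3 genes carry no mark for shared probes, and whether related transcripts bind them was not tested.

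In photosystem II, PSBY (AT1G67740), a small membrane subunit, fell by 0.33 between days 3 and 5 (SE 0.10, limma adjusted p = 0.0254), and PSB27 (AT1G03600), a factor of photosystem assembly and repair, rose by 0.34 (SE 0.11, adjusted p = 0.0310). With PSBW at 0.16, the 3 measured photosystem II genes did not share a direction. ATPC2, for an isoform of the gamma subunit of the ATP synthase, fell by 0.33 (adjusted p = 0.0454), while the main isoform gene ATPC1 stood at -0.08 (adjusted p = 0.651). SBPASE (AT3G55800), which regenerates sugar in the Calvin-Benson cycle as PRK does, fell by 0.30 (SE 0.10, adjusted p = 0.0472), and on day 4 it stood at -0.03 against day 3. For day 5 against day 3, cyclic loess ended the calls of PSBY, ATPC2 and SBPASE (limma adjusted p = 0.0797, 0.0932 and 0.128). Those of ATPC2 and SBPASE were also lost with arrays centred on their median (0.0708 and 0.0547) and after repeated quantile normalization (0.0690 and 0.0872). That of ATPC2 was lost with the prior variance depending on signal level too (0.0501). Unlike that of LHCB4.2, the calls of PSBY, PSB27, ATPC2 and SBPASE were each lost on leaving out any single array of those days (adjusted p from 0.0576 to 0.266). HPR, a peroxisomal reductase gene of photorespiration, rose by 0.48 between days 4 and 5 (SE 0.11, adjusted p = 0.00943), the step in which PRK rose, but leaving out day 5 replicate 2 ended that call (adjusted p = 0.0984).

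**Figure D3:**
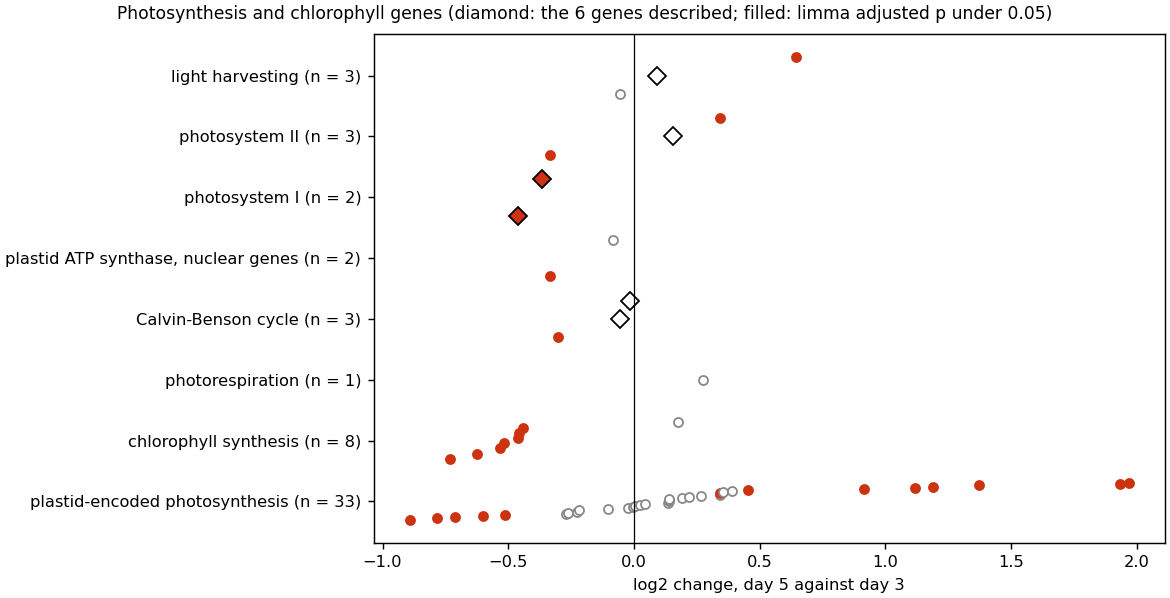
The log2 change of day 5 against day 3 (x axis) for each measured gene of 8 lists (rows, with the number measured); diamonds are the 6 genes described and filled symbols passed an adjusted p of 0.05 in limma. The diamonds lie between -0.46 and 0.16, 7 of 8 chlorophyll synthesis genes lie at -0.44 or lower, and plastid-encoded genes spread from -0.89 to 1.97.

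Genes of chlorophyll synthesis moved more evenly. Chlorophyll is bound by the antenna and photosystem proteins, and its early steps are shared with heme. Of 23 listed genes 8 were measured, and 7 of them fell between days 3 and 5 and also between days 4 and 5 (limma, adjusted p under 0.05). Of all probe sets, 15.7% were called lower between days 3 and 5 and 13.4% between days 4 and 5. The chlorophyll list had a median log2 change of -0.49 for day 5 against day 3, and of -0.01 for day 4 against day 3. HEME2, which encodes an enzyme of the steps shared with heme, fell by 0.73 (SE 0.10, adjusted p = 0.000371). Its values were 9.96 and 10.10 on day 3, 9.92 and 10.02 on day 4, and 9.32 and 9.28 on day 5. CHLI2 (a subunit of magnesium chelatase) fell by 0.62, CHLM (a methyltransferase of the next step) fell by 0.53 and PORB (the light-dependent reductase near the end of the pathway) fell by 0.52. HEMB1, HEME1 and GSA1, of earlier steps, fell by 0.46, 0.46 and 0.44.

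The exception was HEMA2, a glutamyl-tRNA reductase gene known to be active in non-green tissue as well, at 0.18 (adjusted p = 0.254). Without day 3 replicate 2 the count for day 5 against day 3 was 4 of 8, and without day 5 replicate 1 the count for day 5 against day 4 was 3 of 8. The difference between this list and the 6 photosynthesis genes was not tested.

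**Figure D4:**
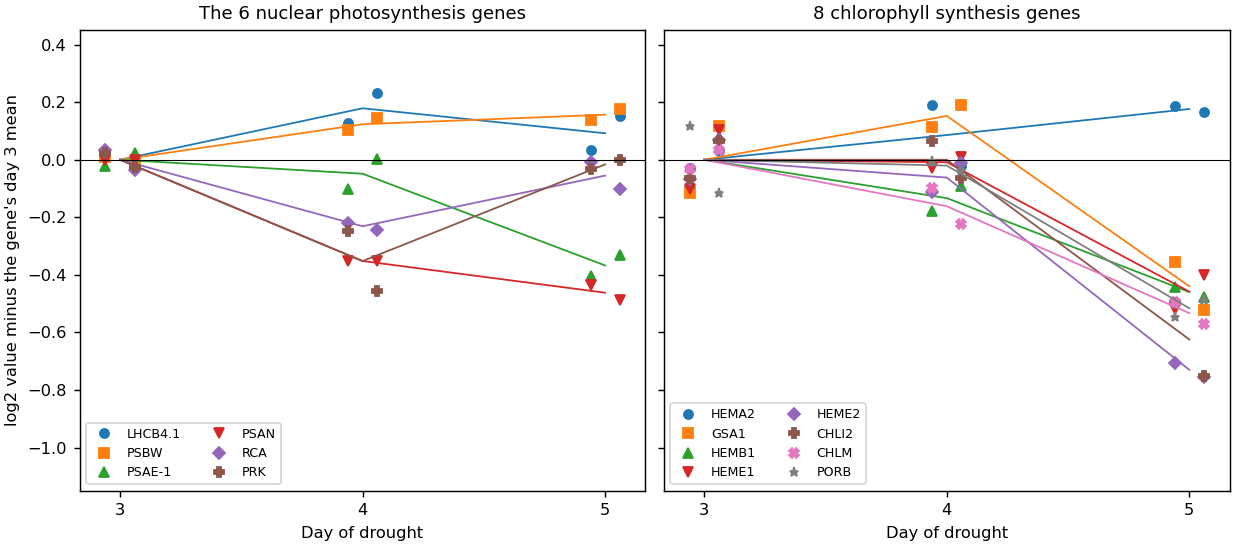
Change of each gene from its day 3 mean on the log2 scale (y axis) by day of drought (x axis), for the 6 photosynthesis genes (left) and 8 chlorophyll synthesis genes (right), with a point per array and lines through the day means. On day 5 the photosynthesis genes spread from -0.49 to 0.18, while 7 of the 8 chlorophyll genes lie together below their day 4 values.

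Photosynthesis genes carried by the plastid itself gave wider changes. Whether the labelling takes up plastid and nuclear transcripts alike was not tested, so their changes may not be like measures. All 33 listed were measured, and 8 rose and 5 fell between days 3 and 5 (limma), with a median of 0.14. Of all probe sets, 13.2% were called higher and 15.7% lower. Scaled to the poly-A controls, 6 of the 33 were higher and 18 lower, where 76.8% of all probe sets were called lower. The photosystem I gene psaC and the photosystem II gene psbT rose by 1.94 and 1.97. The photosystem II gene psbC fell by 0.89 and rbcL, for the large subunit of Rubisco, fell by 0.71. PSAE-1, whose protein sits beside that of psaC in photosystem I, fell over the same days, as given above. RCA, which acts on Rubisco, stood at -0.06.

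Genes whose 6 array values were most like those of a member were sought among the 3910 other probe sets with the name of 1 gene that passed the F test. Likeness was Pearson's r over the 6 arrays, which share days and processing, so it is a description. For PSAE-1 the closest were AT1G05910 (r = 0.999), AT3G02530 (0.997) and AT2G28620 (0.996), and 18.1% of the probe sets searched had an r over 0.9. For PSAN they were AT3G03420, TET10 and TON1B (0.996 each), with 9.85% over 0.9. For PRK they were AT1G27040, AT2G41120 and AT3G27770 (0.983, 0.979 and 0.977), and 1.36% were over 0.9. These shares depend on which probe sets passed the F test.

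Some tissue markers changed over the same days. Of all probe sets, 13.2% were called higher and 15.7% lower for day 5 against day 3. Of 18 listed genes of floral organs and meristems 5 were measured. SPL fell by 0.51 between days 3 and 5 (limma adjusted p = 0.00994), and the other 4 ran from -0.14 to 0.20 and did not pass. For day 5 against day 4, 2 of the 5 were called lower, UFO among them (limma adjusted p = 0.0488), where 13.4% of all probe sets were. With arrays centred on their median, 1 of the 5 was called lower in that step. The same count came with the prior variance depending on signal level and with only those days in the fit. Scaled to the poly-A controls the count was 4, where 84.3% of all probe sets were called lower. The count of 2 did not hold with any single array left out. JAG was lower on day 4 than on day 3, at -0.45 (adjusted p = 0.0361). The summed level of these 5 genes, on the linear scale, was 637 to 698 on day 3, 620 to 641 on day 4 and 621 to 645 on day 5. Such sums, here and below, weigh bright probe sets most. In this list SPT ran from 7.96 to 8.30 on the log2 scale and UFO from 4.48 to 5.08. Both measured tapetum genes of 8 listed, AMS and EMS1, fell between days 3 and 5, and their sum was 1301 to 1351 on day 3, 1232 to 1285 on day 4 and 852 to 1011 on day 5. Of 6 listed pollen genes 4 were measured. ANX2 was higher on day 4 (0.54, adjusted p = 0.0309) and on day 5 (0.45) than on day 3, and AGL65 on day 5 (0.42), while the other 2 did not pass. The pollen sum was 338 to 339 on day 3, 391 to 420 on day 4 and 383 to 405 on day 5. Of 5 stomatal lineage genes 3 were measured. SPCH fell by 0.40 between days 3 and 5, FAMA stood at 0.06 and MUTE at 0.02, and the sum was 219 to 230 on day 3, 216 to 242 on day 4 and 204 to 205 on day 5.

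Several of these marker calls rested on single arrays. For day 5 against day 3, SPL was lost without day 3 replicate 1 or day 5 replicate 1, and SPCH without either array of day 3, without the second of day 5 and with the prior variance depending on signal level. The pollen count was 0 without day 5 replicate 1 and 1 without any other single array of those days, and the tapetum count was 1 without either day 3 array or day 5 replicate 1. On day 4, the call of ANX2 was lost without any single array of days 3 and 4. That of JAG was lost without any single array of days 3 and 5 or without day 4 replicate 2. With all arrays kept, the call of JAG was also lost in 3 settings. These were the prior variance depending on signal level, scaling to the poly-A controls and only days 3 and 4 in the fit. Scaled to the poly-A controls, 2 of the 4 pollen genes were called lower on day 5 than on day 3 and 0 higher. Under that scaling 76.8% of all probe sets were called lower. The part of these markers in the changes of PSAN, PSAE-1 and PRK was not tested, and in whole buds fewer green cells and less RNA per cell cannot be told apart. The level of DREB1A, the mutated gene, was not analysed here, so the genotype rests on the labels.

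The mean of the 24 poly-A controls of the array maker stood 0.49 above its day 3 level on day 5, and 0.55 above its day 4 level, while day 4 minus day 3 was -0.06. Scaled to these controls, the median of all probe sets was -0.50 for day 5 against day 3, and all 6 genes passed as lower, from -0.95 for PSAN to -0.33 for PSBW. In that comparison 76.8% of all probe sets were called lower under this scaling. It also called 5 of the 6 genes lower between days 5 and 4, 3 of the 6 higher on day 4 than the mean of days 3 and 5, and 6 of the 6 in the F test, where the shares of all probe sets were 84.3%, 65.2% and 87.6%. The scaling moves every gene by the same amount, so it leaves their signed order as it was. Under that scaling the change of PRK between days 4 and 5 turned to -0.21 (adjusted p = 0.132), beside a median of -0.60. A probe set for 25S ribosomal RNA also stood higher on day 5, at 13.30 and 13.52, against 12.46 and 12.50 on day 4 and 12.30 and 12.30 on day 3. The log2 difference between the 3′ and 5′ probe sets of GAPDH, a sign of RNA quality, was 1.25 and 1.26 on day 5, against 0.94 and 1.06 on day 4 and 1.19 and 0.94 on day 3. For actin the same difference was 3.46 and 3.47 on day 5, against 3.43 and 3.27 on day 4 and 3.42 and 3.65 on day 3. Its day 5 values thus lay between those of day 3. The part of these measures in the changes was not tested. Whether each sample received the same amount of control RNA is not stated in the labels.

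**Figure D5:**
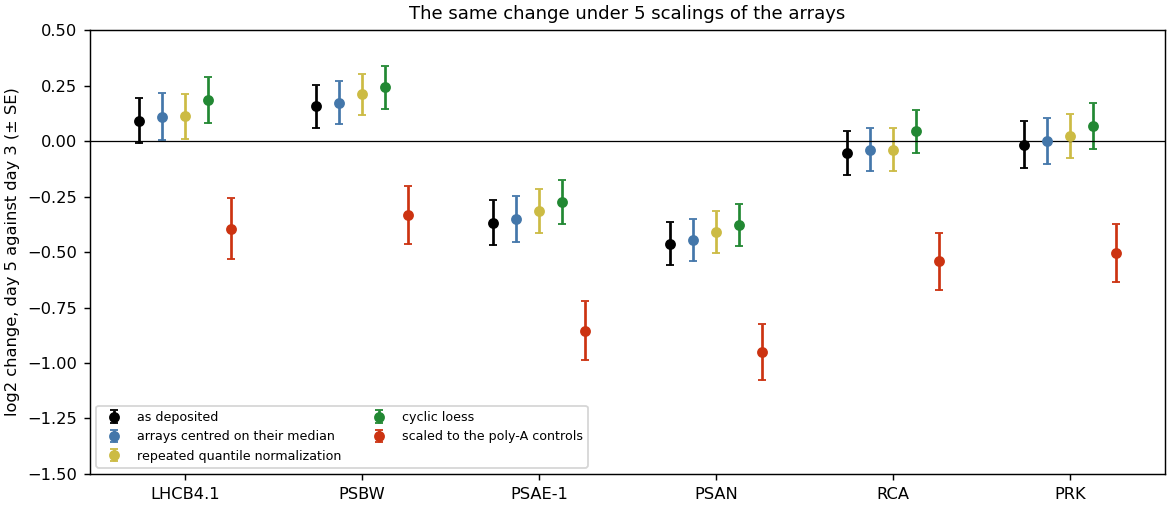
The log2 change of day 5 against day 3 (y axis, ± SE) of each of the 6 genes under 5 scalings of the arrays (colours). PSAN lies between -0.46 and -0.38 under the first 4 scalings, and scaling to the poly-A controls lowers all 6 genes by 0.49.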

How the data were processed

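Total RNA of unopened buds was labelled with biotin and hybridised to Affymetrix ATH1 arrays. For each array the authors deposited log2 values of its probe sets, computed with RMA in the package affy, per the submitters' processing notes. No source used here states the versions or which arrays were normalized together. Genes were named through the platform annotation and the RefSeq table of TAIR10.1, and 13513 probe sets carried 1 gene. The 64 control probe sets were left out of the tests. No coordinates or sequences are given. A linear model of day was fitted to the 6 arrays jointly (limma 3.58.1 in R 4.3.3, eBayes without trend), with 3 residual degrees of freedom and 8.01 from the prior. P-values are two-sided and adjusted by Benjamini-Hochberg over 22746 probe sets, and intervals are 95% and unadjusted. The model was tested on simulated data. The number of arrays limits the precision: the median SE of a change between 2 days was 0.11.

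A listed gene was measured where a probe set was named with it alone and symbol and locus agreed; 5 that the tables name only by locus were left out, and plastid genes were matched by symbol. Lists for chlorophyll breakdown, regulators, thylakoid repair, electron transport and stem walls had 1, 0, 0, 0 and 0 measured genes, and the 1, NOL, stood at 0.25 for day 5 against day 3 (adjusted p = 0.0841). The members and lists were chosen with earlier results of these data known. Named list genes were the members, up to 4 per list with the smallest p among those that passed (2 where none did), and the 3 probe sets most like each member past the F test; LHCB4.3, ATPC1, HEMA2, HEMB1, HEME1 and PORB were named after their values were seen. Alternatives were 2 other priors, 4 other scalings, 2 filters on probe sets, a replicate block, each array left out, the compared days alone and a minimum of 1.2-fold.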

Additional observations from a re-analysis of the deposited data

How the results depend on the processing

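The changes of the 6 genes in the 4 comparisons were recomputed in 378 alternatives. Of these 320 kept direction and side of the threshold, 28 lost a call, 13 gained one and 17 changed sign. The number of the 6 genes called for day 4 against day 3 was 2 with the prior variance depending on signal level, and 1 with repeated quantile normalization, cyclic loess or the dimmest 30% left out, instead of 0. Between days 5 and 4 it was 1 with repeated quantile normalization, 5 scaled to the poly-A controls and 0 with only those days in the fit, instead of 2. After cyclic loess PSAE-1 lost its call for that step and RCA was called higher. Between days 5 and 3 it was 1 after cyclic loess and 6 scaled to the poly-A controls, instead of 2. For day 4 against the other days it was 0 with arrays centred on their median and 3 scaled to the poly-A controls, instead of 1. In the F test it was 6 scaled to the poly-A controls, instead of 3, and it went down to 2 among the other settings that kept all 6 arrays. With 1 array left out the counts ran from 0 to 0 for day 4 against day 3, from 0 to 1 for day 5 against day 4, from 1 to 2 for day 5 against day 3, from 0 to 0 for day 4 against the other days and from 0 to 3 in the F test. The count of 0 in the F test came without either array of day 3. The chlorophyll synthesis counts ran from 3 to 6 for day 5 against day 4 and from 4 to 7 for day 5 against day 3, instead of 7 each.

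Scaled to the poly-A controls, these changes turned sign. Between days 5 and 3 LHCB4.1 was -0.40, PSBW -0.33, PSB27 -0.14 and HEMA2 -0.31. Between days 5 and 4 PSBW was -0.52, RCA -0.37, PRK -0.21, HPR -0.073 and AT3G27770 -0.12. For day 4 against the other days PSAN was 0.19 and RCA 0.10, and for day 4 against day 3 PSAE-1 was 0.015. After cyclic loess LHCB4.1 was 0.040 for day 5 against day 4, PSBW -0.025 for day 4 against the other days, and RCA 0.044, PRK 0.067, LHCB4.3 0.029 and ATPC1 0.0061 for day 5 against day 3. After repeated quantile normalization PSBW was -0.012 for day 4 against the other days and PRK 0.025 for day 5 against day 3, and with arrays centred on their median PRK was 0.0012. With 1 array left out, PSAE-1 ran from -0.10 to 0.0034 for day 4 against day 3, and PRK from -0.040 to 0.0080 and ATPC1 from -0.20 to 0.040 for day 5 against day 3. None of the member changes that turned had passed as fitted, except that of PRK between days 4 and 5. The cause was not tested.

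The labels do not say that a replicate number is shared between days. Deviations of same-numbered arrays from their day mean, over all probe sets tested, correlated at 0.06 (days 3 and 4), -0.0022 (days 3 and 5) and 0.10 (days 4 and 5). Such values cannot decide whether same-numbered arrays were handled together, as each day has only 2 arrays. With the replicate block the counts of the 6 genes stayed at 0, 2, 2 and 1 in the 4 comparisons and 3 in the F test, and the call of SBPASE was lost (adjusted p = 0.0518). With 2 arrays a day, the number of arrays limits the precision.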
